A study of Mus musculus with 18 samples.

Results

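Sterol and fatty acid synthesis genes were followed across 6 conditions of mouse marrow-derived mesenchymal stem cells (MSC), adherent progenitors of the bone marrow with the capacity to form bone and fat. The group held 32 of the 54347 genes in the table, taken by name for their place in the pathways. Earlier results of these data were known when it was chosen. It consisted of 18 enzymes of sterol synthesis (7 of the mevalonate pathway and 11 of the steps from squalene to cholesterol), 4 genes for the regulation of these pathways and for sterol transport, and 10 enzymes of fatty acid supply, synthesis, elongation and desaturation. All 32 were found in the table and all 32 were tested in every comparison.

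RNA-seq was carried out on MSC labelled as male C57BL/6J, with 3 libraries in each of 6 groups. By the methods the libraries of a group came from distinct preparations. By the reporting summary the MSC were a primary line made in the laboratory. In the first experiment MSC received no treatment (control), CK666, which blocks the Arp2/3 complex and thereby the branching of actin filaments, or cytochalasin D (CytoD), which caps actin filaments and disassembles them. In the second experiment all MSC were transfected, with a control siRNA that the labels also call mock (siControl), with an siRNA against Actl6a, the gene for the nuclear actin-related protein Arp4 (siArp4), or with the Arp4 siRNA followed by CK666 (siArp4+CK666). The labels name no experiments, and the 2 used here divide the libraries by transfection. A group given siControl and CK666 was not analysed here, so the effects of transfection and of the knockdown on the response to CK666 cannot be told apart. By the methods, the siRNA was given overnight in serum-free medium before the other treatments, the cells came from the marrow of several mice, and the age of the animals was not given. The labels give the treatment of the control cells as none. The paper's immunoblot legends refer to vehicle-treated samples, and whether the control cells for RNA-seq received a vehicle is not stated. In bulk RNA, fewer cells of a type and less RNA per cell cannot be told apart. The p-values measure the spread between preparations of that line and not between animals.

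Cholesterol is built from acetyl-CoA in a long chain of enzymes, first to mevalonate and farnesyl diphosphate, then through squalene and lanosterol. Fatty acids are built from the same acetyl-CoA and are then elongated and desaturated. The transcription factors SREBP-1 and SREBP-2, encoded by Srebf1 and Srebf2, drive many of these genes when membrane sterol is low, and INSIG proteins hold them in the endoplasmic reticulum when sterol is plentiful. SREBP-2 is known mainly for the sterol genes and SREBP-1 for the fatty acid genes, and SREBPs bind sterol regulatory elements, commonly beside CCAAT boxes bound by NF-Y.

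Promoter sequences were examined first because the sterol genes moved together in several comparisons. Of the 32 genes, 25 matched a RefSeq entry (GRCm38.p6), and the 250 bases before each annotated start were searched on both strands for the sterol regulatory element TCACNCCAC and for the CCAAT box, whose reverse complement reads ATTGG. The full element was present in 1 of the 25 genes (4.0%) and in 1.22% of the 27025 genes of the promoter table. With 1 mismatch allowed it was present in 10 of the 25 (40.0%) and in 22.95% of all genes. The CCAAT box was present in 20 of the 25 (80.0%) and in 37.49% of all genes, and both motifs together in 1 (4.0%) and in 0.47%. These matches describe letters in a window and are not binding sites. Windows of 4 genes are given 5′ to 3′ in the direction of transcription, with the motifs in capitals. They are from the single gene with the full element (Hmgcs1, chr13:119690101-119690350, plus strand) and a sterol gene lower in most comparisons (Mvd, chr8:122443423-122443672, minus strand). The others are a sterol gene that passed in none (Ebp, chrX:8193513-8193762, minus strand) and a fatty acid gene (Acly, chr11:100528001-100528250, minus strand). Acly was lower with CK666 and higher with the Arp4 siRNA, each against its own control.
Hmgcs1: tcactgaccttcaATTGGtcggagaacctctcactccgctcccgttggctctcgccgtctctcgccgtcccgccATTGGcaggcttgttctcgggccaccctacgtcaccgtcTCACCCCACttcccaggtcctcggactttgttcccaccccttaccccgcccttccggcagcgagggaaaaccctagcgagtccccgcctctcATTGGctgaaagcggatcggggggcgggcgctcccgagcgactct
Mvd: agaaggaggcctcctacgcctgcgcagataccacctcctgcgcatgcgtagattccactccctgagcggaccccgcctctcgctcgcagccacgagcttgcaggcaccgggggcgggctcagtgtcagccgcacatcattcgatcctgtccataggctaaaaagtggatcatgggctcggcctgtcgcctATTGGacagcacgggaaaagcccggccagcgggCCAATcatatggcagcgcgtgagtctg
Ebp: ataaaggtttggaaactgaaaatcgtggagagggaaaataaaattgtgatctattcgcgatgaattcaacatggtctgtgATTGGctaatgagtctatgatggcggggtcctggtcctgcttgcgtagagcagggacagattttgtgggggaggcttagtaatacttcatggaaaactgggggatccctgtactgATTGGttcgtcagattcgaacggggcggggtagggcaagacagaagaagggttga
Acly: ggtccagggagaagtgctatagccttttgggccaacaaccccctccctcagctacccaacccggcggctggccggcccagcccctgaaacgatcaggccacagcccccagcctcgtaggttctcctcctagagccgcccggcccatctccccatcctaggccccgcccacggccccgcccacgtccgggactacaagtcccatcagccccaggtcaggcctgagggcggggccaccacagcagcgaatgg
In Hmgcs1 the full element lay 137 bases before the start and CCAAT boxes lay 237, 176 and 45 bases before it. Mvd had CCAAT boxes 60 and 27 bases before the start and Ebp had them 170 and 55 bases before it, while neither motif was found in the window of Acly.

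Library totals ran from 18075610 to 24733212 estimated counts, and mitochondrial genes took 1.30% to 3.36% of them. The knockdown target Actl6a had normalized counts of 720, 1127 and 841 in siControl. Its counts were 48.9, 57.2 and 19.0 after the Arp4 siRNA and 9.52, 22.9 and 17.9 where CK666 was added to it. The siControl libraries stood apart from each other. Over 11054 genes, the deviation of siControl replicate 1 from the other siControl libraries rose with transcript length (Spearman's rho 0.562). That of replicate 2 fell with it (-0.501). Other groups had such trends too, with 0.538 and -0.532 in siArp4+CK666 replicates 1 and 3 and 0.472 in siArp4 replicate 3. In CK666, over 11032 genes, rho was -0.595 in replicate 1, 0.558 in replicate 2 and 0.399 in replicate 3. These values run across genes, which are not independent replicates. Among the 32 genes, Tm7sf2 in siControl replicate 2 was 1.37 above and Acly 1.09 below the other siControl libraries on the log2 scale. Markers of MSC were high in sum in every library, but unevenly. Vim, Col1a1 and Cxcl12 had mean counts of 102876, 47719 and 43439, and Pdgfrb, Pdgfra and Ly6a had 5853, 2918 and 865. Eng, Lepr and Nt5e had means of only 33.3, 11.8 and 1.7, and Thy1 was at 0 in all 18. The endothelial genes Cdh5 and Emcn were at 0 in all 18, and the summed blood markers reached at most 291 normalized counts in any library.

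Together the 32 genes took 0.480% to 0.503% of all counts in the control libraries, 0.242% to 0.284% in CK666 and 0.566% to 0.581% in CytoD. In the second experiment they took 0.350% to 0.522% in siControl, 0.422% to 0.472% in siArp4 and 0.256% to 0.313% in siArp4+CK666. Levels of different genes were compared after dividing counts by mean transcript length and scaling each library to a fixed sum of 1000000. On that scale the 2 stearoyl-CoA desaturases led in control MSC, Scd2 with 378 ± 23.5 (SD, n = 3) and Scd1 with 247 ± 15.8, and Fads1 followed with 225 ± 5.41 and the sterol demethylase Cyp51 with 213 ± 14.8. The ranges of Scd2, Scd1 and Fads1 did not overlap, whereas the range of Cyp51 (201 to 230) overlapped that of Fads1 (219 to 230). The lowest of the 32 were Pmvk with 10.3 ± 1.80 and Tm7sf2 with 7.22 ± 0.913.

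CK666 lowered most of the sterol synthesis genes. A gene passed where its DESeq2 adjusted p was below 0.01 and was called where it also differed by more than 2-fold. Of the 32 genes 26 passed, 25 lower and 1 higher, where 30.0% of the 14597 genes tested passed, 14.7% as lower and 15.3% as higher. Of the 32, 15 were called, all lower, where 11.0% of the genes tested were called and 6.06% were called lower. The median log2 fold change was -0.85 over the 32 genes, -1.44 over the 18 sterol enzymes and -0.48 over the 10 fatty acid enzymes, against 0.01 over all genes tested. In each CK666 library the median of the sterol enzymes lay between -1.59 and -1.21 relative to the control mean, and in each control library between -0.02 and 0.02.

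**Figure D1:**
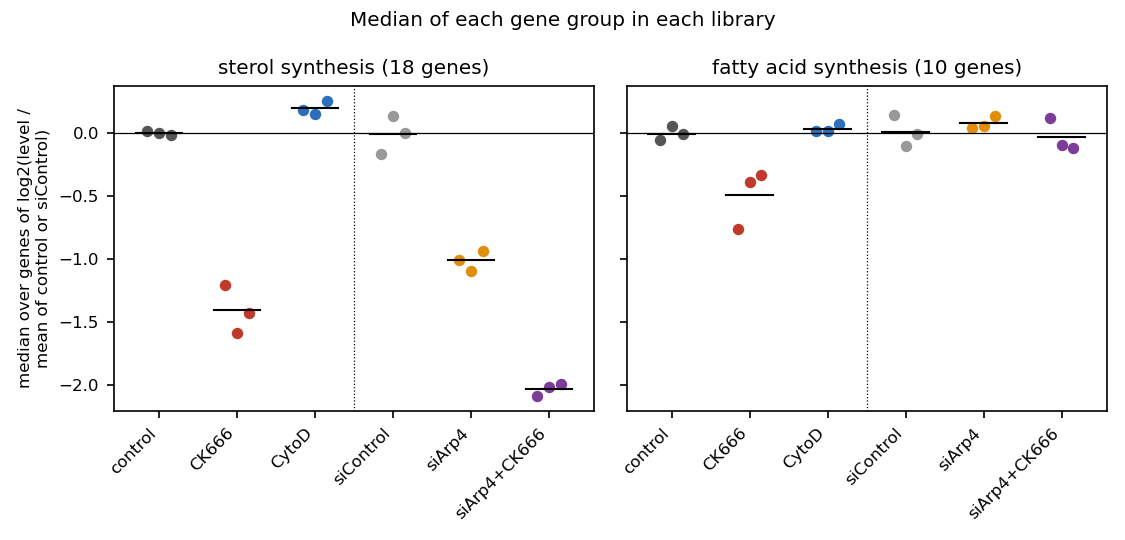
Median over the sterol synthesis genes (left) and the fatty acid synthesis genes (right) of the log2 ratio of each library to the mean of its own control, with control for the first 3 groups and siControl for the last 3; each point is 1 library and bars are group means. The sterol medians of the CK666, siArp4 and siArp4+CK666 libraries all lie below those of the control and siControl libraries, with siArp4+CK666 lowest and down to -2.09, while the fatty acid medians lie from -0.77 to -0.34 with CK666 and between -0.12 and 0.14 in every other library.

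In the mevalonate pathway all 7 enzymes fell with CK666, and 5 were called. Idi1, the isomerase that makes dimethylallyl diphosphate, had 3534, 3027 and 2544 normalized counts in control and 428, 474 and 412 in CK666. The groups did not overlap, and CK666 libraries held 14.4% of the control level, which is -2.79 on the log2 scale (SE 0.14, adjusted p = 1.3e-90). Acat2, the cytosolic thiolase that joins acetyl-CoA units, had 2146, 2189 and 2244 in control and 590, 579 and 591 in CK666 (log2 fold change -1.90, SE 0.09). It was the most evenly lowered of the pathway, with an SD of 6.68 in CK666. Hmgcs1, which makes HMG-CoA, went from 3186, 3456 and 3228 to 1087, 1033 and 1084 (-1.62, SE 0.08). Fdps, the farnesyl diphosphate synthase, fell to 33.6% of control and Pmvk, the phosphomevalonate kinase, to 34.5%. The kinase Mvk (-0.90) and the decarboxylase Mvd (-0.60) passed but were not called. Mvd overlaps Gm20388 on the opposite strand, and the libraries were unstranded, so its reads may be mixed with those of that gene.

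From squalene onward 9 of 11 enzymes fell, and 6 were called. Sqle, the epoxidase that starts the sterol-specific part, had 5196, 4874 and 4913 in control and 1429, 1477 and 1405 with the inhibitor (-1.80 on the log2 scale, SE 0.08, adjusted p = 5.25e-98). Hsd17b7, a ketoreductase of the demethylation steps, went from 2428, 2385 and 2356 to 527, 766 and 762 (-1.80, SE 0.14), and Cyp51 from 4361, 4825 and 4466 to 1489, 1347 and 1360 (-1.70, SE 0.09). In all 3 genes every CK666 library lay below every control library. Dhcr7, which reduces the last double bond of the ring, was at 380, 479 and 462 in control and 146, 138 and 116 in CK666 (-1.72, SE 0.18). The oxidase Msmo1 (-1.34) and the dehydrogenase Nsdhl (-1.17) were also called. Lss, which closes the rings (-0.80), Fdft1, the squalene synthase (-0.73), and the desaturase Sc5d (-0.62) passed without reaching 2-fold. With all 18 libraries fitted together, Lss (adjusted p = 0.0179) no longer passed, and neither did Mvd (0.055), Acly (0.048) or Scd1 (0.0148). Fdft1 overlaps Ctsb, which had a mean count of 48198 against 2132 for Fdft1, on the opposite strand. Cyp51 likewise overlaps Akap9, whose mean count was 707. The other 2 enzymes did not pass. Ebp, the sterol isomerase, was at 827, 888 and 1023 in control and 1410, 772 and 983 in CK666, groups that overlapped (0.21, 95% interval -0.18 to 0.60). Tm7sf2, a reductase that has low counts here and overlaps Vps51 on the same strand, had a log2 fold change of 0.13 (SE 0.26).

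All 4 regulatory and transport genes fell with CK666. Stard4, a carrier of cholesterol between membranes, showed the steepest fall of the 4, from 2539, 2456 and 2478 to 354, 481 and 426 (log2 fold change -2.57, SE 0.12, adjusted p = 2.05e-101). Insig1, the sterol-regulated anchor of the SREBPs, went from 3498, 3524 and 3393 to 1573, 1728 and 1738 (-1.05, SE 0.08). Srebf2 dropped from 5082, 5136 and 4988 to 3187, 2836 and 3175 (-0.72, SE 0.09), and Srebf1 fell by 0.48 on the log2 scale (SE 0.12). The transcripts of the factors themselves were thus lowered less than Stard4 or Idi1, though no test of that difference between genes was made. Srebf1 overlaps Rai1 on the opposite strand, and it no longer passed without control replicate 3 (-0.40, adjusted p = 0.0128).

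Among the fatty acid genes, 5 fell, 1 rose and 4 did not pass with CK666. Scd2 had 19910, 21783 and 20542 in control and 5323, 7416 and 7273 in CK666, 32.2% of the control level (log2 fold change -1.64, SE 0.13, adjusted p = 3.79e-33). Elovl6, which elongates palmitate, went from 887, 992 and 943 to 303, 387 and 353 (-1.44, SE 0.15). No CK666 library of either gene reached the control range. Scd1, the paralogue of Scd2, fell by 0.55 (SE 0.15), less than Scd2, and reads could be split between these similar genes. Scd1 no longer passed without control replicate 2 (-0.51, adjusted p = 0.0161), in edgeR (0.0105) or with all 18 libraries fitted together (0.0148). Fads2 (-0.72) and Acly, which releases acetyl-CoA from citrate (-0.57), passed as well. Me1, the malic enzyme that yields NADPH, was the gene that rose, from 4673, 4199 and 4324 to 7498, 6536 and 6445 (0.63, SE 0.10, adjusted p = 3.82e-10). Neither of the central enzymes passed. Fasn, the fatty acid synthase, had a log2 fold change of -0.42 (adjusted p = 0.0101), just above the threshold. It passed with the filter on low counts (0.00822), with only the 2 groups fitted (0.00693) and without CK666 replicate 1 (0.00961), CK666 replicate 3 (0.00759), CytoD replicate 1 (0.00353) or CytoD replicate 3 (0.00562). Acaca, the acetyl-CoA carboxylase, had -0.15 with an interval from -1.06 to 0.76. The width of that interval came with CK666 libraries of 736, 2886 and 1982, so a change of Acaca was not detectable here. Fads1 (-0.22) and the acetyl-CoA synthetase Acss2 (0.46), which overlaps Gss on the opposite strand, did not pass. Without CK666 replicate 1 Acss2 passed as higher (0.61, adjusted p = 0.000136).

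**Figure D2:**
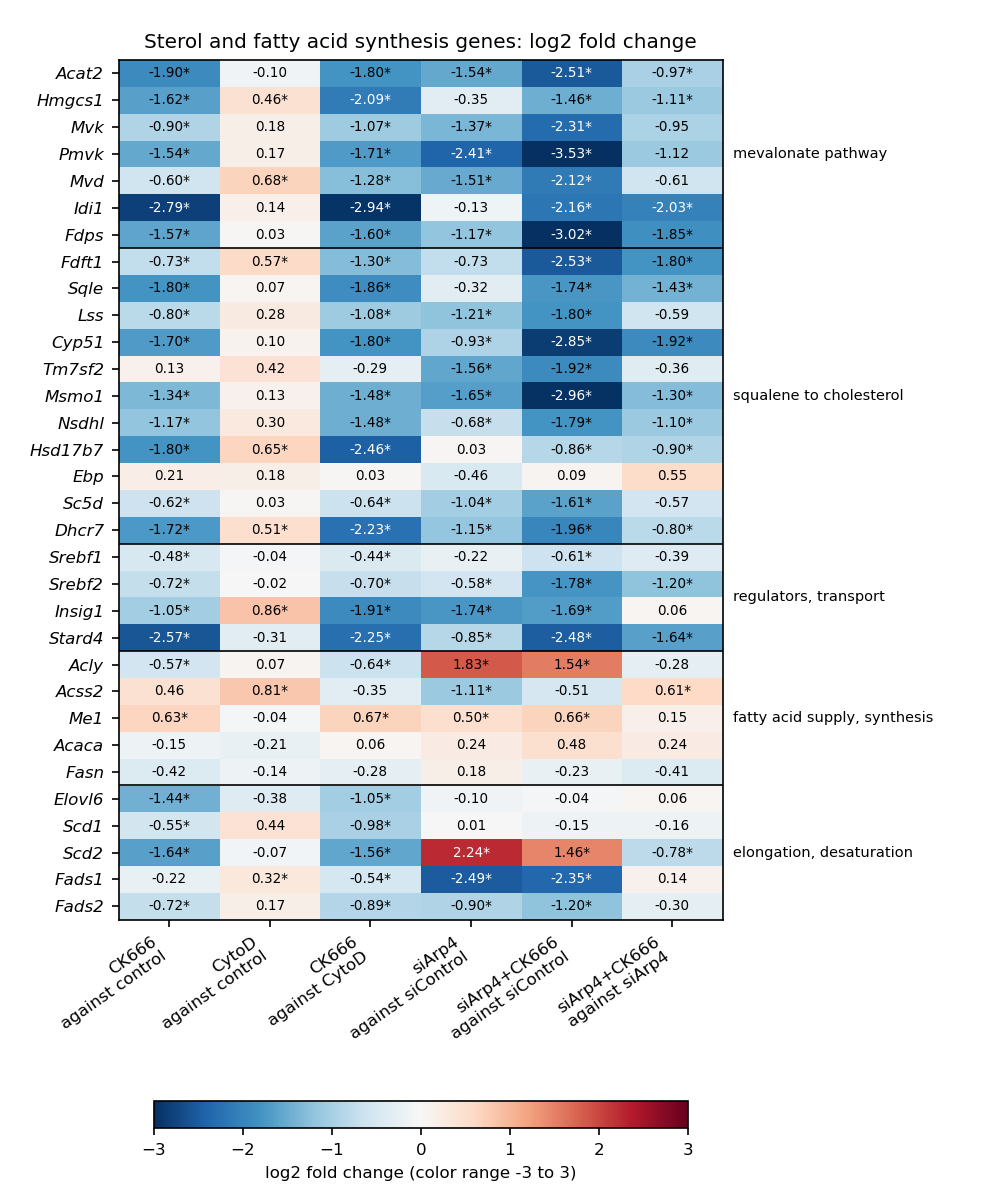
Log2 fold change of each of the 32 genes (rows, grouped by role) in 6 comparisons (columns), with the color running from -3 to 3 and an asterisk where the DESeq2 adjusted p was below 0.01. The column of CytoD against control holds no asterisk on a lower gene, whereas in the columns of CK666, siArp4 and siArp4+CK666 against their controls most sterol enzymes are lower, from -0.60 to -2.79 for those that passed with CK666.

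Markers of fat cells moved with CK666 as well. The summed normalized counts of 7 adipocyte markers were 6688 to 7385 in control and 7540 to 9783 in CK666, and 6 of the 7 passed as higher. Their median log2 fold change was 1.91. Cebpa had the largest mean count of the 7 (6470), with Fabp4 next (1911), so these sums mostly follow Cebpa. The sum of 10 MSC markers was 274401 to 284342 in control and 169570 to 205044 in CK666. Their part in the result on the sterol genes was not tested.

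CytoD raised 8 of the genes and lowered none past the threshold. Of the 32 genes 8 passed, all higher, where 29.6% of the 13717 genes tested passed and 13.6% passed as higher, and none was called by DESeq2 or by edgeR, where 9.12% were called by DESeq2. At an unadjusted p under 0.05, 12 of the 32 differed from control, as did 45.6% of all genes tested. Fitting all 18 libraries together left 3 that passed. The median was 0.16 over the 32 genes and 0.18 over the sterol enzymes, against 0.01 over all genes tested. The share of the 32 that passed was below that of all genes tested. Control libraries are shared with the CK666 comparison, so the 2 comparisons are not independent.

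Insig1 rose most, with 3498, 3524 and 3393 in control and 6381, 6206 and 6317 after CytoD (0.86 on the log2 scale, SE 0.08, adjusted p = 2.41e-27). CytoD libraries lay far above the control range. Acss2 was at 275, 280 and 308 in control and at 505, 536 and 473 in CytoD (0.81, SE 0.17). Mvd (0.68), Hsd17b7 (0.65), Fdft1 (0.57), Dhcr7 (0.51), Hmgcs1 (0.46) and Fads1 (0.32) were the others that rose. Dhcr7 and Fads1 did not pass in edgeR, with adjusted p of 0.0204 and 0.0195. Each also did not pass in 7 of the 9 fits that left out a library. Idi1 was at 3387, 3316 and 3358 in CytoD, within the control range of 2544 to 3534 (0.14, SE 0.13). Stard4 had a log2 fold change of -0.31 (SE 0.11) and Elovl6 of -0.38 (SE 0.15), with adjusted p of 0.0177 and 0.0275. Their CytoD libraries, at 2035, 1999 and 1983 for Stard4 and at 845, 676 and 642 for Elovl6, did not overlap with control. Both passed as lower when only control and CytoD were fitted (4.06e-06 and 0.00486) and without CK666 replicate 1 (2.13e-05 and 0.00504). Scd1 (0.44) passed as higher in the same fits (1.19e-12 and 1.31e-11) and without CK666 replicate 2 (0.00239). Stard4 also passed without CK666 replicate 2 (0.00315) and Elovl6 without CytoD replicate 1 (0.00384). Summed adipocyte markers were 14132 to 16052 in CytoD against 6688 to 7385 in control, and all 7 passed as higher.

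The direct comparison of the 2 drugs tests that difference. With CK666 against CytoD, 27 of the 32 genes passed, 26 lower and 1 higher, and 19 were called lower, where 31.8% of the 15038 genes tested passed (14.9% as lower, 16.9% as higher), 11.8% were called and 6.74% were called lower. The median was -1.18 over the 32 genes and -1.54 over the sterol enzymes, against -0.03 over all genes. Idi1 (-2.94, SE 0.14), Hsd17b7 (-2.46, SE 0.14), Stard4 (-2.25, SE 0.12), Dhcr7 (-2.23, SE 0.18) and Hmgcs1 (-2.09, SE 0.08) were the furthest apart. Mvk, Mvd, Fdft1 and Lss, which were not called against control, were called here, at log2 fold changes from -1.30 to -1.07. Me1 was again the gene that was higher with CK666 (0.67, SE 0.10). Srebf1 no longer passed without CytoD replicate 1 (-0.35, adjusted p = 0.0231). Of 8 MSC markers tested 5 passed as lower with CK666 than with CytoD, and of 7 adipocyte markers 3 did. The part of these markers in the result was not tested.

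Knockdown of Arp4 lowered sterol enzymes as well, in an uneven pattern. The question of this comparison was how the loss of a nuclear actin-related protein alters transcription. Of the 32 genes 21 passed in siArp4 against siControl, 18 lower and 3 higher, where 25.1% of the 15415 genes tested passed, 13.1% as lower and 11.9% as higher. Calls numbered 15, of which 13 were lower and 2 higher, where 16.2% were called, 9.49% lower and 6.69% higher. The median log2 fold change was -0.79 over the 32 genes, -1.10 over the sterol enzymes and 0.10 over the fatty acid enzymes, against -0.05 over all genes. Leaving out single libraries gave 13 to 15 calls.

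In the mevalonate pathway 5 of 7 enzymes fell, and all 5 were called. Pmvk had 289, 695 and 490 in siControl and 92.6, 97.2 and 88.2 in siArp4, 18.9% of the siControl level (log2 fold change -2.41, SE 0.33, adjusted p = 1.22e-11). The siArp4 libraries lay close together and the siControl libraries far apart, yet the groups did not overlap. Acat2 went from 2470, 3666 and 3148 to 1093, 1014 and 1079 (-1.54, SE 0.19). Mvd (-1.51), Mvk (-1.37) and Fdps (-1.17) were also called. Fdps no longer passed in edgeR (adjusted p = 0.0167), without siArp4 replicate 2 (0.0112) and without siArp4 replicate 3 (0.0174). Idi1 and Hmgcs1 did not pass. Idi1, the gene most lowered by CK666, was at 2362, 1847 and 2180 in siControl and 1837, 1974 and 2018 in siArp4 (-0.13, SE 0.15), and Hmgcs1 had -0.35 (SE 0.28).

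Of the 11 enzymes from squalene to cholesterol, 7 fell and 5 were called. Msmo1 was at 2859, 5710 and 4203 in siControl and 1343, 1448 and 1274 in siArp4 (log2 fold change -1.65, SE 0.28). Tm7sf2 (-1.56), Lss (-1.21), Dhcr7 (-1.15) and Sc5d (-1.04) were the other calls. Cyp51 had some of the most even libraries, 5028, 5162 and 5062 in siControl and 2605, 2611 and 2791 in siArp4, 52.5% of siControl (-0.93, SE 0.12, adjusted p = 2.13e-14). Nsdhl passed at an adjusted p of 0.00939, and it did not pass in 8 of the 9 fits that left out a library. In edgeR Tm7sf2 (adjusted p = 0.0131), Lss (0.0186) and Nsdhl (0.0252) did not pass. By DESeq2 Lss also did not pass without siArp4 replicate 2 (-1.07, adjusted p = 0.0273) and without replicate 3 (0.0157). Sqle (-0.32) and Hsd17b7 (0.03) did not pass, and Fdft1 (-0.73, adjusted p = 0.0525) and Ebp (-0.46) did not either. Sqle passed without siControl replicate 2 (-0.48, adjusted p = 0.000283) and Fdft1 without siControl replicate 1 (-0.98, adjusted p = 0.00035).

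Of the regulators, 3 fell. Insig1 was at 8638, 5018 and 7685 in siControl and at 2122, 2037 and 2213 in siArp4, 29.9% of siControl (log2 fold change -1.74, SE 0.23, adjusted p = 3.32e-13). Stard4 fell by 0.85 (SE 0.24) and Srebf2 from 3961, 4093 and 3694 to 2633, 2532 and 2683 (-0.58, SE 0.13), without overlap of the Srebf2 groups. Stard4 no longer passed in edgeR (adjusted p = 0.0145) and without siControl replicate 3 (0.0149), siArp4 replicate 1 (0.0241) or siArp4 replicate 2 (0.0314). Srebf1 did not pass (-0.22, SE 0.14).

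Fatty acid genes moved in both directions with the knockdown, 3 up and 3 down. Scd2 was at 9120, 5832 and 7253 in siControl and 32072, 34038 and 38555 in siArp4 (log2 fold change 2.24, SE 0.21, adjusted p = 6.06e-25), the reverse of its direction with CK666. Acly rose from 1145, 457 and 823 to 2718, 2645 and 3263 (1.83, SE 0.33). For both genes the lowest siArp4 library lay above the highest siControl library. Me1 rose by 0.50 (SE 0.10), but did not pass when a trend with GC content and transcript length was removed (0.37, adjusted p = 0.0152). Fads1, the front-end desaturase that completes arachidonic acid precursors, was at 5093, 6100 and 5237 in siControl and 928, 1029 and 977 in siArp4, 17.9% of siControl (-2.49, SE 0.13, adjusted p = 1.83e-74). Fads2, the other front-end desaturase, whose gene lies near Fads1 on chromosome 19, fell from 2652, 2656 and 2662 to 1379, 1521 and 1387 (-0.90, SE 0.10). Acss2 went from 618, 529 and 594 to 265, 247 and 294 (-1.11, SE 0.18). Scd1 (0.01), Elovl6 (-0.10), Fasn (0.18) and Acaca (0.24) did not pass, the last of these with siControl libraries of 1831, 716 and 774. Without siControl replicate 1 Acaca passed as higher (0.80, adjusted p = 0.00717). Summed adipocyte markers were 4177 to 4571 in siArp4 and 6432 to 11122 in siControl. Of the 7 markers 5 passed as lower, where 13.1% of all genes tested did, and their median log2 fold change was -3.03. Mitochondrial genes took 2.67% to 3.26% of counts in siArp4, 2.86% to 3.36% in siArp4+CK666 and 1.30% to 2.66% in siControl. The part of either in these differences was not tested.

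**Figure D3:**
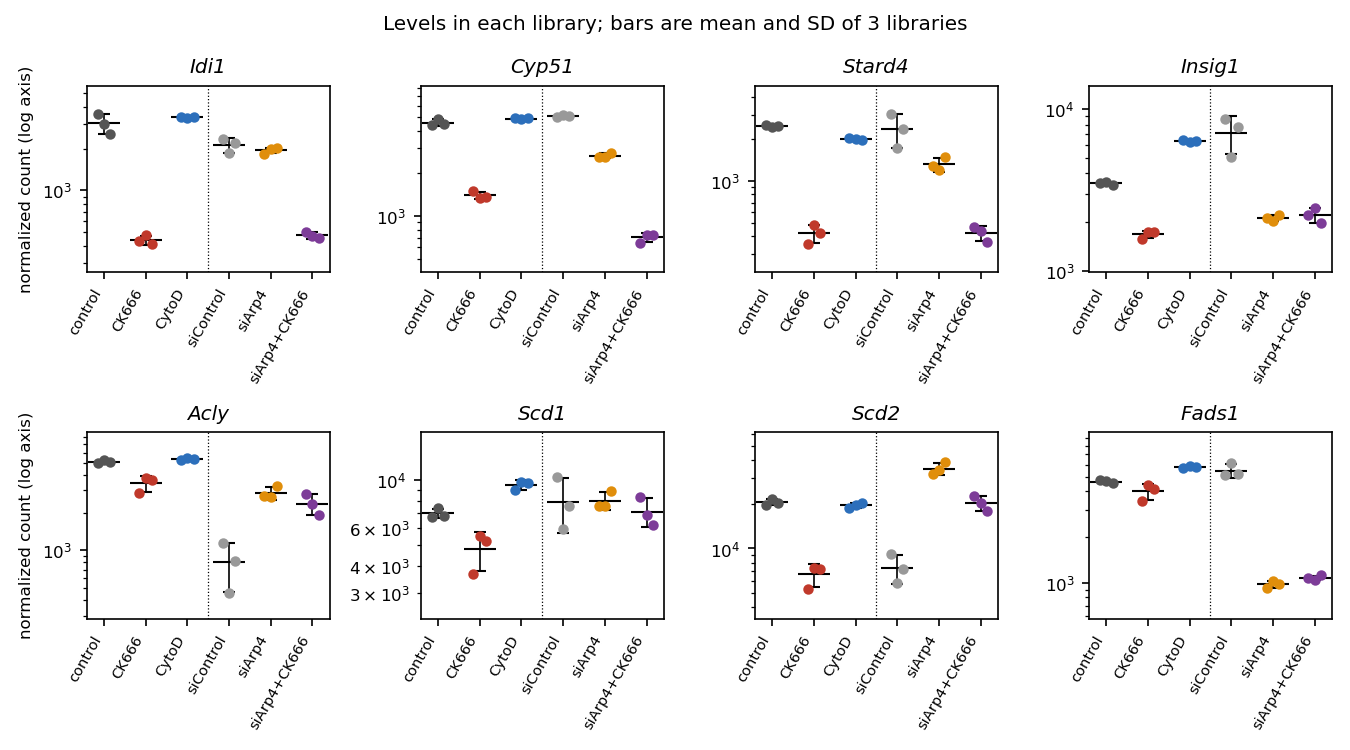
Normalized counts (log axes) of 8 of the genes in each of 18 libraries, with points for libraries and bars for the mean and SD of 3; the dotted line parts the 2 experiments, which were normalized separately. Idi1 is low only in the groups that received CK666, Cyp51 is lowest in siArp4+CK666 at 642 to 739, Scd2 is low in CK666 and in siControl, and Fads1 is low in both groups that received the Arp4 siRNA.

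The 2 interventions together gave the lowest levels of most sterol genes. In siArp4+CK666 against siControl, 26 of the 32 genes passed, 23 lower and 3 higher, where 29.9% of the 15415 genes tested passed, 15.8% as lower and 14.0% as higher. A further threshold of 2-fold left 23 calls, 21 lower and 2 higher, where 20.4% were called, 12.4% lower and 8.06% higher. The median was -1.76 over the 32 genes, -2.04 over the sterol enzymes and -0.10 over the fatty acid enzymes, against -0.05 over all genes tested. The siControl libraries are shared with the comparison of siArp4 alone.

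Of the 18 sterol enzymes 17 fell, and the exception was Ebp (0.09, SE 0.35). Pmvk was at 40.2, 39.1 and 48.5 in siArp4+CK666, 8.67% of siControl (log2 fold change -3.53, SE 0.35). Fdps was at 461, 601 and 746 after 2921, 7043 and 4719 in siControl (-3.02, SE 0.32), and Msmo1 was at 415, 605 and 626 (-2.96, SE 0.28). No library of the combined group reached the siControl range in any of the 3. Cyp51 was at 642, 737 and 739, 13.9% of siControl (-2.85, SE 0.12, adjusted p = 4.97e-125). Fdft1 (-2.53), Acat2 (-2.51), Mvk (-2.31), Idi1 (-2.16) and Mvd (-2.12) all fell by more than 4-fold. Hsd17b7 (-0.86) no longer passed without siArp4+CK666 replicate 2 (-0.83, adjusted p = 0.0252) or replicate 3 (-0.77, adjusted p = 0.0264). It also did not pass in edgeR (0.0147) or with only the 2 groups fitted (0.0181). Srebf2 was at 1239, 1159 and 1027, 29.2% of siControl (-1.78, SE 0.13), Stard4 fell by 2.48 (SE 0.24), and Srebf1 by 0.61 (SE 0.14). Srebf1 no longer passed when a trend with GC content and transcript length was removed (-0.28, adjusted p = 0.247). Insig1 was at 2218, 2441 and 1975 (-1.69, SE 0.23), values that overlapped with those of siArp4 alone.

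Fatty acid enzymes again moved in both directions. Scd2 (1.46, SE 0.21), Acly (1.54, SE 0.33) and Me1 (0.66, SE 0.10) were higher, and Fads1 (-2.35, SE 0.13) and Fads2 (-1.20, SE 0.10) were lower than in siControl. The remaining 5 did not pass, although Acaca did without siControl replicate 1 (1.05, adjusted p = 0.000276) and Acss2 (-0.51) without siControl replicate 2 (0.00835) or siArp4+CK666 replicate 1 (0.00548). Elovl6, which CK666 had lowered in untransfected cells, was at 866, 776 and 609 in siArp4+CK666 and at 877, 846 and 596 in siControl (-0.04, 95% interval -0.47 to 0.39). Summed adipocyte markers were 7939 to 10413 in siArp4+CK666, and the MSC markers summed to 83685 to 87247 against 183979 to 202830 in siControl, with 4 of the 8 tested passing as lower. Their part in these results was not tested.

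Within knockdown cells, CK666 lowered sterol enzymes further. In siArp4+CK666 against siArp4, 15 of the 32 genes passed, 14 lower and 1 higher, where 9.90% of the 14098 genes tested passed, 6.07% as lower and 3.82% as higher. edgeR passed 9 of the 32. Calls by DESeq2 numbered 10, all lower, where 5.75% were called and 4.12% were called lower. The median was -0.69 over the 32 genes and -1.04 over the sterol enzymes, against 0.02 over all genes tested. Idi1 was at 1837, 1974 and 2018 in siArp4. With CK666 added it was at 505, 472 and 452 (log2 fold change -2.03, SE 0.15, adjusted p = 6.83e-38). All 3 libraries given CK666 lay far below the siArp4 range. Cyp51 (-1.92, SE 0.12), Fdps (-1.85, SE 0.32), Fdft1 (-1.80, SE 0.31), Stard4 (-1.64, SE 0.24) and Sqle (-1.43, SE 0.18) followed, and Srebf2 stood at 43.7% of the siArp4 level. Msmo1, Hmgcs1 and Nsdhl were the remaining calls. Acss2 was the gene that rose (0.61, SE 0.18), and it did not pass in 7 of the 9 fits that left out a library. Likewise Dhcr7 (-0.80) did not pass in 7 such fits, Hsd17b7 (-0.90) in 6, and Hmgcs1 (-1.11) and Scd2 (-0.78) in 5 each. Of 6 adipocyte markers tested 4 passed as higher, and of 8 MSC markers 3 passed as lower and 1 as higher. The MSC markers summed to 172982 to 173444 in siArp4 and 83685 to 87247 in siArp4+CK666. The part of these markers in the sterol result was not tested.

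The comparisons of CK666 in untransfected and in knockdown cells share no libraries. The 14 genes lower in the knockdown cells made up 100% of that list and 56.0% of the 25 genes lower in untransfected cells, and no gene passed in opposite directions. Of the calls, 8 were common to both, out of 15 in untransfected and 10 in knockdown cells. Across the 32 genes the log2 fold changes had a Pearson's r of 0.761, a description over genes that share libraries and are not independent. In knockdown cells 11 of the genes lower in untransfected cells did not pass. They were Acly, Elovl6, Fads2, Insig1, Lss, Mvd, Mvk, Pmvk, Sc5d, Scd1 and Srebf1. The standard error of each was larger in knockdown cells, so a missing call by itself is not a missing effect. For Elovl6, Insig1 and Fads2 the response itself differed, by 1.49, 1.10 and 0.41 in the interaction contrast given below.

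**Figure D4:**
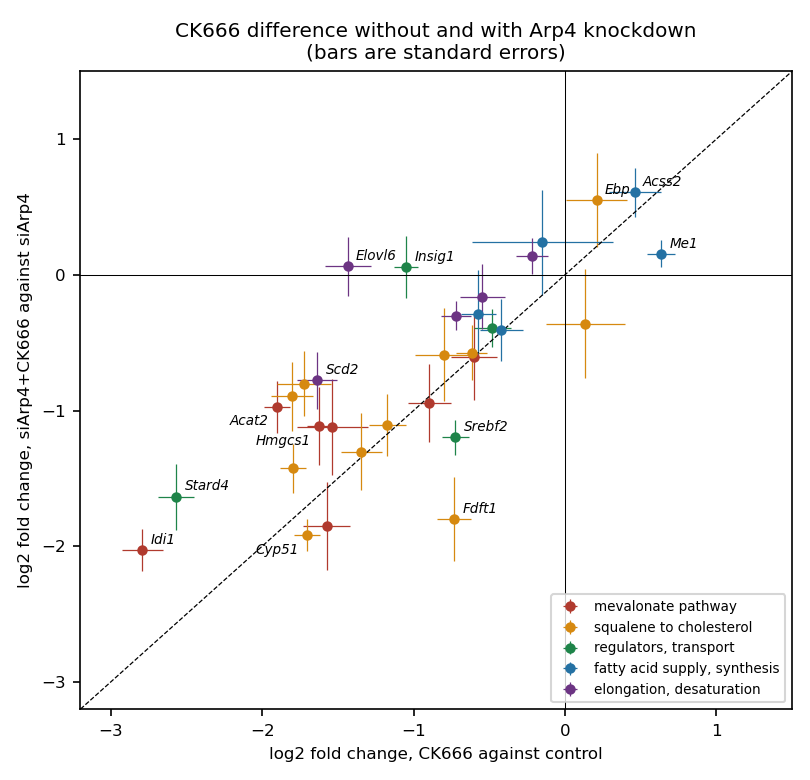
Log2 fold change of each of the 32 genes with CK666 in untransfected cells (horizontal) and in Arp4 knockdown cells (vertical); bars are standard errors, colors are roles and the dashed line marks equal change. Idi1 and Stard4 lie far down on both axes, Elovl6 and Insig1 are lowered on the horizontal axis only (vertical values of 0.06), and Fdft1 and Srebf2 lie below the dashed line.

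An interaction contrast, fitted over all 18 libraries, tested the difference between the 2 responses to CK666, which also differ by transfection. Of the 32 genes 9 passed, 7 with a higher (mostly less negative) and 2 with a lower value in knockdown cells, where 7.82% of the 13511 genes tested passed, 3.76% as higher and 4.06% as lower. The 2 called, Elovl6 and Insig1, were both higher, where 4.42% were called and 1.90% were called higher. Elovl6 differed most. It fell by 1.44 with CK666 in untransfected cells and had 700, 692 and 764 in siArp4 against 866, 776 and 609 in siArp4+CK666, an interaction of 1.49 (SE 0.25, adjusted p = 1.41e-07). Insig1 had 2122, 2037 and 2213 in siArp4 against 2218, 2441 and 1975 in siArp4+CK666, groups that overlapped (log2 fold change 0.06, 95% interval -0.39 to 0.50), and an interaction of 1.10 (SE 0.22, adjusted p = 1.33e-05). Insig1 was already low in siArp4 before CK666 was added. Acat2 (0.93, SE 0.20) also held in edgeR. Stard4 (0.93), Scd2 (0.85), Idi1 (0.76) and Fads2 (0.41) were less lowered in knockdown cells, Srebf2 (-0.48) was more lowered, and Me1, which rose in untransfected cells, was less raised (-0.48). These last 6 did not pass in edgeR, which passed 3 in all, and among the 18 fits that left out a library Fads2 and Stard4 did not pass in 9 each and Scd2 in 7. Without siArp4 replicate 3, 4 genes were called.

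Other genes of the same pathways moved in both directions. Over all genes tested, 30.0% passed with CK666, 29.6% with CytoD, 25.1% with siArp4 and 29.9% with siArp4+CK666, each against its control. Of 10 genes that handle SREBPs, such as their escort Scap, 4 passed as higher by DESeq2 with CK666. None was lower with an unadjusted p under 0.05. With CytoD 1 passed as higher and 2 as lower, with siArp4 2 each way, and with siArp4+CK666 2 as higher and 1 as lower. Insig2, the paralogue of Insig1, was at 996, 814 and 822 in siControl and 2708, 2449 and 2578 in siArp4 (log2 fold change 1.55, SE 0.18), opposite in direction to Insig1 in the same libraries. Of 13 other sterol genes, 4 were higher and 5 lower with CK666. Soat1, which esterifies cholesterol for storage, was at 2924, 2930 and 2849 in control and 8120, 7610 and 7292 in CK666 (1.40, SE 0.09), without overlap. It also rose with CytoD (0.76), siArp4 (1.25) and siArp4+CK666 (2.05). Gramd1a (1.63) and Gramd1b (2.22), carriers of cholesterol out of the plasma membrane, were called higher with CK666. With CytoD 3 of the 13 were higher and 4 lower, among them Cyp27a1, the mitochondrial sterol hydroxylase (1.69), and Tmem97, a membrane protein of sterol trafficking (-1.13). With siArp4 2 were higher and 3 lower, and Cyp27a1 (-2.23) and the oxysterol-binding protein Osbp (-1.11) were the lowest.

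Of 5 genes made of the LXR sterol receptors and their targets, all 5 rose with CytoD, where 13.6% of all genes tested passed as higher. Of these 3 were called, where 9.12% of all genes were, namely Abcg1, a cholesterol exporter (1.64, SE 0.17), Nr1h3, the receptor LXR alpha (1.59, SE 0.17), and Mylip, which marks lipoprotein receptors for degradation. With CK666 3 were higher and 1 lower, and with siArp4 2 were lower, Abcg1 (-1.21) and Lpcat3 (-1.13). Of 27 other fatty acid genes 24 were tested with CK666, of which 5 were higher and 4 lower, the called ones being Acacb (1.43) and Elovl7 (1.14). With CytoD 5 were higher and 6 lower among 23 tested, Acacb again being higher (1.77) and Fads3 lower (-1.01). Mlxipl, the carbohydrate-responsive factor ChREBP, was also called higher, from 0 in all 3 control libraries to 19.1, 21.3 and 5.15 normalized counts in CytoD. With siArp4 3 were higher and 5 lower among 24, including the acyl-CoA synthetases Acsl4 (2.23) and Acsl3 (1.68), the citrate carrier Slc25a1 (-1.46) and the elongase Elovl5 (-1.41). Shares of these lists that passed were counted from the same fits, and each list was written with earlier results of these data known.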

How the data were processed

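RNA-seq had been performed on mouse MSC with 3 libraries per group in 6 groups. These were divided here by transfection into 2 experiments of 9 libraries each, which the labels do not name. The authors deposited 1 table of estimated counts per gene for 18 libraries, quantified with Salmon 1.2.1 under default settings against GRCm38 (mm10) and GENCODE vM25 transcripts, per the methods and the submitters' processing notes. How transcripts were summed to genes is not given in the sources used here. Salmon assigns reads shared by similar transcripts by estimation, so values of paralogues carry added error.

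Estimated counts were rounded to whole numbers. Symbols came from the GENCODE vM21 annotation, which matched 54094 of 54347 identifiers and left 253 without one, and gene lengths were mean transcript lengths from it. Libraries were unstranded. Each experiment was fitted apart with DESeq2 1.42.0 (R 4.3.3, Wald test, default size factors, independent filtering at 0.01), and p-values were adjusted by Benjamini-Hochberg over all genes tested. The interaction was fitted over all 18 libraries. Genes with an adjusted p that DESeq2 gave as NA were left out of the tested genes. The script was tested on simulated data with known fold changes. Promoters came from RefSeq (GRCm38.p6).

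The members and lists were chosen with earlier results of these data known. The genes named were all 32 members, Actl6a and, of each other list, at most the 4 largest calls in a comparison with a control. Also named were Scap as an example of its list, genes that overlap a member, and marker genes needed to describe their lists. Alternatives were edgeR 4.0.16 (quasi-likelihood test), TMM size factors, a filter of at least 10 counts in 3 libraries, a replicate block, other sets of libraries in the fit, a test against a fold change of 2, an adjusted p of 0.05, each library left out, and removal of a GC content and length trend. Total counts of 18075610 to 24733212 set the counting precision. Replicates differed by more than sampling noise in every pair (chi-square per degree of freedom of at least 6.795).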

Additional observations from a re-analysis of the deposited data

Results flagged for a closer look

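For 9 of the 32 genes the response to CK666 differed between Arp4 knockdown cells and untransfected cells, by the DESeq2 interaction test over 18 libraries. The interaction, given as the log2 response in knockdown cells minus that in untransfected cells, was 1.49 for Elovl6, 1.10 for Insig1, 0.93 for Acat2, 0.93 for Stard4, 0.85 for Scd2, 0.76 for Idi1 and 0.41 for Fads2. It was -0.48 for Srebf2 and -0.48 for Me1. Elovl6, Insig1 and Acat2 passed in edgeR as well and the others did not. Transfection and knockdown cannot be told apart as the source of these differences.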

How the results depend on the processing

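Of 224 pairings of a member with a comparison, none that passed turned its direction under any alternative run. Counts of members that passed ran from 25 to 28 (CK666 against control), 6 to 11 (CytoD against control), 26 to 27 (CK666 against CytoD), 17 to 22 (siArp4 against siControl), 25 to 27 (siArp4+CK666 against siControl), 10 to 18 (siArp4+CK666 against siArp4) and 6 to 13 (interaction) when single libraries were left out. Counts of members called ran from 15 to 15, 0 to 0, 18 to 19, 13 to 15, 23 to 24, 9 to 11 and 2 to 4 in the same order. The upper count for the interaction came without siArp4 replicate 3. Fitting all 18 libraries together left 3 members passed in CytoD against control, where 8 passed in the fit by experiment. edgeR passed 9 rather than 15 members in siArp4+CK666 against siArp4 and 3 rather than 9 in the interaction. Testing against a fold change of 2 called 12 rather than 19 members in CK666 against CytoD, 3 rather than 15 in siArp4, 15 rather than 23 in siArp4+CK666 against siControl, 2 rather than 10 against siArp4 and 0 rather than 2 in the interaction, which is a stricter test by construction. With 1 mismatch the sterol regulatory element was found in 10 rather than 1 of the promoters. For the other changes the cause was not tested.

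The labels do not say that replicate numbers mark shared preparations, and of 18 same-numbered pairs 3 had a correlation over 0.1 (range -0.224 to 0.405 over 1000 genes), so the numbers were not taken as pairs. A fit with the replicate block called 15, 0, 19, 15, 23, 10 and 2 members and passed 27, 7, 27, 20, 26, 13 and 9, in the order above. With the block Fasn passed as lower in CK666 (adjusted p = 0.000298) and Scd1 as higher in CytoD (0.00369). Dhcr7 (0.0151) and Fads1 (0.0173) in CytoD, Nsdhl in siArp4 (0.013) and, in siArp4+CK666 against siArp4, Dhcr7 (0.0177) and Acss2 (0.0221) did not pass with it. Of the results for single genes, the block left 217 on the same side of the threshold, edgeR 203 of 224, TMM size factors 220 and removal of the GC content and length trend 206. That last alternative and the fit of only the groups compared were chosen after seeing the data. Reads of Mvd and Fdft1 may be mixed with those of their opposite-strand neighbours, as the libraries were unstranded. Reads of Tm7sf2 may be mixed with those of its neighbour on the same strand.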
